A study of Mus musculus with 4 samples.

Results

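The extracellular matrix genes described here are 36 named genes of basement membranes, of the interstitial matrix and of the proteins that process or protect both. They were chosen by name, from earlier results of the same table, and 32 of them had a row among its 19840 genes. The 32 were 14 basement membrane genes, 13 genes of the interstitial matrix and 5 genes of matrix processing, while Dcn, Lum, Postn and Lox are not analysed here. The cells were naive mouse embryonic stem cells, grown in 2i/LIF, which holds pluripotency with kinase inhibitors and the cytokine LIF. All cells were infected with a pLKO.1 lentivirus, whose hairpin was directed at Lncenc1, a long noncoding RNA of naive stem cells (shLincenc1), or was a control (shCtrl), and all were selected with puromycin for 2 days. There were 2 libraries in each group, made from total RNA after removal of ribosomal RNA. Per the protocols, 2 cell lines, E14TG2a and R1, were cultured and each target had 2 hairpin designs, but which of these a given library used is not labelled.

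The deposited table compares the groups once and does not name the numerator of its fold change. Lncenc1 had 6400 and 7250 normalized reads in the libraries of the numerator group (H1 and H2), and 2126 and 2121 in those of the other group (L1 and L2). Paired values below stand in the order H1 and H2 for Lncenc1-high cells, and L1 and L2 for Lncenc1-low cells. The groups are therefore called Lncenc1-high and Lncenc1-low, and a positive log2 fold change means a higher level in the Lncenc1-high group. Which of them received the hairpin against Lncenc1 is not stated in the table, so its Lncenc1 level is no check of the labels. The reads of each library were worked out from the deposited means, and a normalized read is a read divided by the size factor of its library. The recovered reads summed to 26742632 in H1, 11085581 in H2, 11250801 in L1 and 10637561 in L2, so that a gene with few reads was measured most finely in H1. No label says whether the libraries of a group are separate cultures, so the spread behind the p-values may be a technical one. With 2 libraries against 2, an exact two-sided permutation test cannot give a p under 0.333, and the tests below come from models fitted across all genes.

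A basement membrane is a thin sheet of matrix under epithelia. Laminins, trimers of an alpha, a beta and a gamma chain, assemble at the cell surface, type IV collagen forms a network beside them, and nidogens and the proteoglycans perlecan and agrin join the networks. In the early mouse embryo the primitive endoderm and its parietal derivative secrete large amounts of laminin, type IV collagen and Sparc, and the inner cell mass itself makes laminin. Interstitial matrix, by contrast, is built by fibroblasts from fibrillar collagens, fibrillins, fibronectin and small proteoglycans such as decorin and lumican, and feeder fibroblasts can bring such transcripts into a stem cell culture.

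The libraries had the markers of stem cells at high levels. All 7 stem cell markers, Pou5f1, Sox2, Nanog, Esrrb, Klf4, Zfp42 and Tfcp2l1, lay between 469 and 5161 normalized reads per kb of exon, averaged over the 4 libraries. Of 12 fibroblast markers 8 had a row, and their normalized reads summed to 229 and 194 in Lncenc1-high cells and 397 and 311 in Lncenc1-low cells. The list shares its collagens, Fbn1, Dcn, Lum and Postn with the 36 genes. Most of these sums came from Fbn1, a microfibril gene, and Pdgfrb, a growth factor receptor gene, while Prrx1 and Fap had 0 reads in H1 and H2. Without Fbn1 the sums were 89.3 and 84.1 in Lncenc1-high cells and 72.7 and 137 in Lncenc1-low cells, with L1 lowest and L2 highest. A larger list of 34 fibroblast genes, 25 with a row and 5 shared with the 12 markers, summed to 1643 and 1485 normalized reads in Lncenc1-high cells and 1473 and 1398 in Lncenc1-low cells. Its gene Fbln1 alone had 1126 and 1068 of these in Lncenc1-high cells and 1105 and 617 in Lncenc1-low cells. By gene, 17 of the 25 had a negative fold change, as had 9 of the 13 tested, against 50.6% of all tested genes. Defining fibroblast collagens were near 0. Col1a1 had 4 and 1 reads in Lncenc1-high cells and 1 and 9 in Lncenc1-low cells, and Col3a1 had 4 and 0 reads in Lncenc1-high cells and 2 and 0 in Lncenc1-low cells. Of the primitive endoderm regulators, Gata4 was the most abundant, with 58 and 23 reads in Lncenc1-high cells and 9 and 17 in Lncenc1-low cells. Gata6 had 5 and 0 reads in Lncenc1-high cells and 2 and 5 in Lncenc1-low cells, and neither Sox17 nor Sox7 had more than 6 reads in a library. Of the other 2 markers not among the 36, Pdgfra had 19.0 and 33.9 normalized reads in Lncenc1-high cells and 33.3 and 27.2 in Lncenc1-low cells, and Dab2 had 10.8 and 2.51 in Lncenc1-high cells and 28.3 and 19.8 in Lncenc1-low cells. By log2 fold change, 7 of the 8 fibroblast markers with a row were negative. So were 7 of the 9 endoderm markers, which include Lama1, Col4a1 and Sparc. Among those tested, 3 of 4 and 4 of 6 were negative, against 50.6% of all tested genes, and 0 were called. The part of these markers in the results below was not tested. In bulk RNA, fewer cells of a type and less RNA per cell cannot be told apart.

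Most of the 14 basement membrane genes were expressed well above the typical gene, and most of the 13 interstitial genes far below it. Levels of different genes are compared per kb of exon, since a long transcript gathers more reads. The 14 basement membrane genes had a median of 215 normalized reads per kb and a range of 2.38 to 1270, against a median of 71.5 over all tested genes. The 13 interstitial genes had a median of 2.58 and a range of 0.115 to 962 normalized reads per kb. A further 23 basement membrane genes with a row, taken up below, had a median of 3.92. The level of the 14 is thus not that of the whole class. Of the 14 basement membrane genes 10 lay in the upper part of the distribution, above the median of tested genes, and the 3 type IV collagen genes lay at percentiles 16.1, 7.09 and 2.97. Of the 8 interstitial genes with a test, 2 lay above the median, namely Fn1, which codes for fibronectin, and Vcan, which codes for the proteoglycan versican. Fibronectin and versican thus stood with the basement membrane genes, at 962 and 164 normalized reads per kb, while the fibrillar collagen chain Col1a2 was at 0.884.

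**Figure D1:**
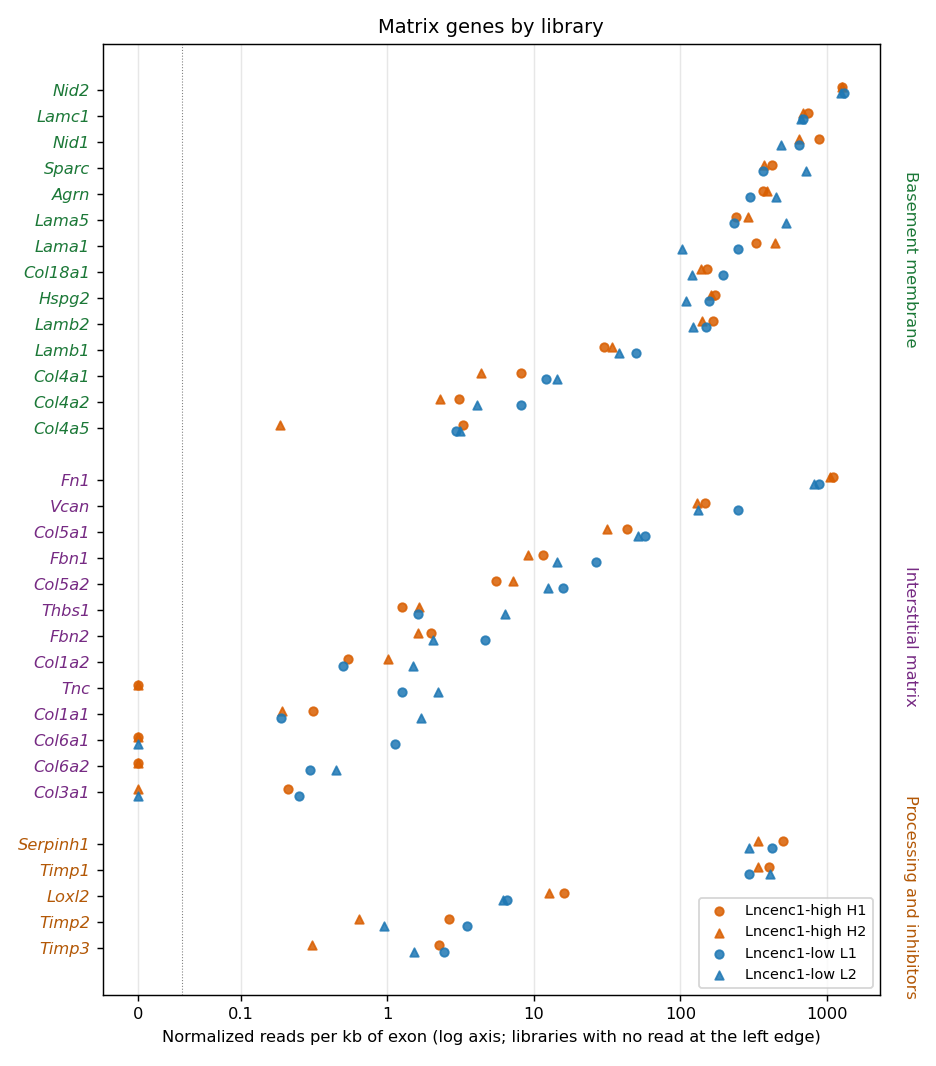
Normalized reads per kb of exon (log axis) of the 32 matrix genes with a row, in the 2 Lncenc1-high libraries (orange) and the 2 Lncenc1-low libraries (blue), where a library with no read stands at the mark 0. Within the basement membrane group the nidogen and perlecan genes, and the laminin genes other than Lamb1, lie far above Col4a1, Col4a2 and Col4a5. Lamb1 lies nearer to these, at 38.0 against 9.74 for Col4a1. The interstitial group falls from Fn1 at 962 to Col3a1 at 0.115 on average.

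Among the 14 basement membrane genes, the nidogen genes and the laminin gene Lamc1 led and type IV collagen genes came last. Nid2 (nidogen 2) was the most abundant per kb, at 1270 normalized reads per kb over the 4 libraries, followed by the laminin gamma chain Lamc1 at 696 and Nid1 (nidogen 1) at 662. Sparc, a collagen-binding glycoprotein, followed at 469, Agrn (agrin) at 376, Lama5 at 321 and Lama1 at 279 normalized reads per kb. The endostatin precursor Col18a1, the perlecan gene Hspg2 and the laminin beta chain Lamb2 were close to each other at 152, 151 and 144 normalized reads per kb. Lamb1, the other beta chain, was at 38.0. The ratio of Lamc1 to Lamb1 per kb was 24.7 and 20.1 in Lncenc1-high cells and 13.9 and 17.3 in Lncenc1-low cells. The beta chains together thus stayed under the gamma chain in all 4 libraries, and Lamb2 exceeded Lamb1 5.53-fold and 4.11-fold in Lncenc1-high cells and 3.00-fold and 3.16-fold in Lncenc1-low cells. The type IV collagen chains Col4a1, Col4a2 and Col4a5 were at 9.74, 4.42 and 2.38 normalized reads per kb. Per kb, Lamc1 exceeded Col4a1 91.3-fold and 157-fold in Lncenc1-high cells and 57.1-fold and 46.2-fold in Lncenc1-low cells.

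Col4a1 and Col4a2, whose products form the common type IV collagen trimer, are transcribed in opposite directions from starts that lie beside each other. The stretch is printed because it holds both annotated starts of this pair, whose levels are described next. It is the plus strand of chr8:11312797-11312826 in GRCm38.p6, credited to RefSeq, and capitals mark the 22 bases from the Col4a2 start, at 11312805, to the Col4a1 start, at 11312826, which belong to both transcripts.
Col4a1 and Col4a2 starts: ccctcggcAGTGCGCGGGCGGCGTCTCCAA
The windows of 250 bases before to 50 after each start overlapped by 78 bases. Both windows held the GC box letters GGGCGG and the letters CCAAT, on either strand, and neither held TATAAA. Of 32817 promoter windows of the same length, 35.6% held GGGCGG, 37.4% held CCAAT and 13.6% held TATAAA. Windows were found for 24 of the 36 genes, 29 in all, and 22, 11 and 4 of the 29 held these motifs in that order. A match of letters is a description of the window and says nothing of binding.

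No matrix gene was called different between the groups. With an adjusted p under 0.05 from DESeq2 as the threshold, 0 of the 26 tested matrix genes were called in the authors' deposited table, against 1.53% of all 14070 genes tested. Of all genes tested, 0.505% were called higher and 1.02% lower in the Lncenc1-high group. Limma voom on the recovered counts also called 0 of the 26. At an unadjusted p under 0.05 the authors' deposited table held 4 of the 26, Nid1 and Loxl2 higher and Fbn1 and Col5a2 lower in the Lncenc1-high group, against 8.82% of all genes tested. Voom held 5 of 26 at that level, against 10.2% of all genes, and without H2 a refit held 2, against 5.89% of all genes. The remaining 6 genes with a row, Col1a1, Col3a1, Col6a1, Col6a2, Tnc and Timp2, had means under 8.36 normalized reads and no adjusted p in the authors' deposited table. In 12 of the 26 both libraries of a group lay above both of the other, 5 with the Lncenc1-high group above and 7 with it below. That is 46.2% of the tested matrix genes, near the 41.3% of all tested genes whose groups did not overlap.

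How large a difference had to be for a call depended on the gene. Given its standard error, a gene needed a Wald statistic of at least 3.37 to be called in the authors' deposited table. For the most precisely measured genes, Fn1 and Nid2, that amounts to a 1.51-fold difference, for Lama1 to 4.44-fold, for Col4a1 to 3.65-fold and for Col4a5 to 18.0-fold. At these standard errors, a smaller observed difference fell short of a call, which sets no limit on the true difference.

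**Figure D2:**
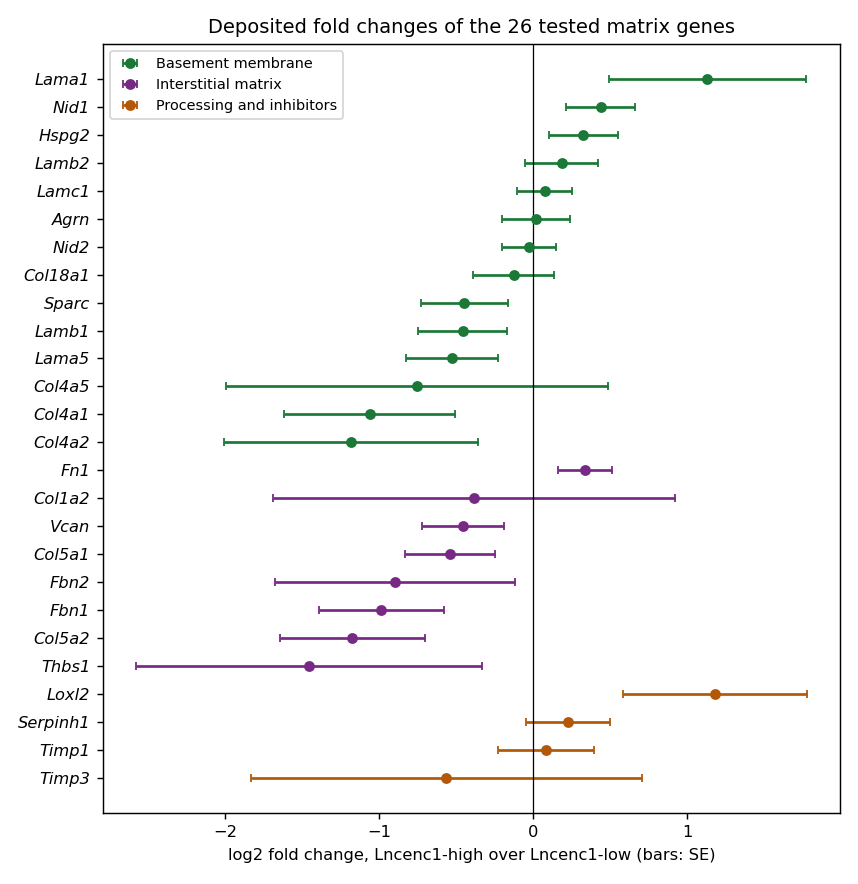
The log2 fold change of the 26 tested matrix genes, Lncenc1-high over Lncenc1-low, in the authors' deposited table, with bars of 1 standard error, grouped by role and sorted within the group. Values run from 1.13 for Lama1 to -1.18 for Col4a2 among basement membrane genes, and 7 of the 8 interstitial genes lie below 0.

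The laminin alpha chains had fold changes of opposite sign, and neither passed the test. Lama1, the alpha chain of laminin-111 in early embryos, had 3167 and 4256 normalized reads in Lncenc1-high cells and 2402 and 986 in Lncenc1-low cells. Both Lncenc1-high libraries lay above both Lncenc1-low libraries, and L2 was lowest by a wide margin. The authors' deposited table gives Lama1 a log2 fold change of 1.13 ± 0.64 (SE), with a DESeq2 adjusted p of 0.67, and without L2 the refitted value was 0.63 and without L1 it was 1.91. Lama5, the alpha chain of laminin-511, on which naive stem cells attach and self-renew in culture, had 2712 and 3275 normalized reads in Lncenc1-high cells and 2624 and 6004 in Lncenc1-low cells. L2 was the single high library, and the groups overlapped. The authors' deposited table gives Lama5 a log2 fold change equal to -0.53 ± 0.30 (SE) and a DESeq2 adjusted p of 0.673, and without L2 the refitted value was 0.19.

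The alpha chains of L2 stood opposite to those of the other libraries. The ratio of Lama1 to Lama5 per kb was 1.37 and 1.53 in Lncenc1-high cells and 1.08 and 0.193 in Lncenc1-low cells. Lama1 thus exceeded Lama5 in 3 libraries and was far below it in L2. The beta and gamma chains spread less between libraries. Lamb1 had 298 and 339 normalized reads in Lncenc1-high cells and 492 and 381 in Lncenc1-low cells, a log2 fold change equal to -0.46 ± 0.29 (SE) in the authors' deposited table. Lamb2 had 1010 and 854 in Lncenc1-high cells, against 905 and 737 in Lncenc1-low cells, with 0.19 ± 0.24 (SE) in the authors' deposited table. Lamc1, the gamma chain common to these trimers, had 6127 and 5685 normalized reads in Lncenc1-high cells and 5696 and 5508 in Lncenc1-low cells. The authors' deposited table gives Lamc1 a log2 fold change of 0.076 ± 0.18 (SE), whose 95% interval runs from -0.28 to 0.43. The Lamb1 groups did not overlap, and those of Lamb2 and Lamc1 did.

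The type IV collagen chains were scarce and had negative fold changes, none of which passed the test. Col4a1 had 60.6 and 32.6 normalized reads in Lncenc1-high cells and 89.96 and 108 in Lncenc1-low cells, a log2 fold change equal to -1.06 ± 0.55 (SE) with a DESeq2 adjusted p of 0.588 in the authors' deposited table. Col4a2 had 20.5 and 15.1 normalized reads in Lncenc1-high cells, against 54.2 and 27.2 in Lncenc1-low cells, with -1.18 ± 0.83 (SE) and a DESeq2 adjusted p of 0.817 in the authors' deposited table. In both genes the groups did not overlap, and the high library of the Lncenc1-low group was L2 for Col4a1 and L1 for Col4a2. Col4a5, a chain of the X-linked type IV collagen pair, had 22.1 and 1.25 normalized reads in Lncenc1-high cells and 19.7 and 21.0 in Lncenc1-low cells. Here H2, with 1 read, was the single low library, and the refitted log2 fold change was 0.12 without it, against -0.75 ± 1.24 (SE) in the authors' deposited table. Col18a1, the precursor of endostatin, had 1065 and 972 normalized reads in Lncenc1-high cells and 1378 and 845 in Lncenc1-low cells, and the groups overlapped, at -0.13 ± 0.26 (SE) in the authors' deposited table.

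Nidogens, perlecan and agrin link the laminin and collagen networks. Nid1 had 6093 and 4480 normalized reads in Lncenc1-high cells and 4443 and 3364 in Lncenc1-low cells. Both Lncenc1-high libraries lay above both Lncenc1-low ones, H2 by a narrow margin. The authors' deposited table gives Nid1 a log2 fold change of 0.44 ± 0.22 (SE), an unadjusted p of 0.0494 and a DESeq2 adjusted p of 0.563. Its paralog Nid2 was the most even gene of the group, with 6497 and 6531 normalized reads in Lncenc1-high cells and 6802 and 6461 in Lncenc1-low cells. The authors' deposited table gives Nid2 -0.026 ± 0.18 (SE), a 95% interval of -0.37 to 0.32. Hspg2, which codes for the heparan sulfate proteoglycan perlecan, had 2467 and 2330 normalized reads in Lncenc1-high cells, against 2256 and 1570 in Lncenc1-low cells. The groups did not overlap, and the authors' deposited table gives Hspg2 0.33 ± 0.22 (SE). Agrn, coding for agrin, had 3416 and 3614 normalized reads in Lncenc1-high cells and 2790 and 4149 in Lncenc1-low cells, with 0.019 ± 0.22 (SE) in the authors' deposited table. Sparc had 1606 and 1403 normalized reads in Lncenc1-high cells, against 1386 and 2715 in Lncenc1-low cells. The authors' deposited table gives Sparc -0.45 ± 0.28 (SE), and the refitted value without L2 was 0.12. In Agrn and Sparc the Lncenc1-low libraries spanned the Lncenc1-high ones, L2 being the highest and L1 the lowest of the 4.

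Across the 14 basement membrane genes the median log2 fold change was -0.075 in the authors' deposited table, with 6 values above and 8 below 0, beside a median of -0.0054 over all tested genes. The refits without 1 library gave medians from -0.11 to 0.049. Their summed normalized reads were 34561 and 33789 in Lncenc1-high cells and 31337 and 32875 in Lncenc1-low cells.

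Among interstitial genes, Fn1 and Vcan were the abundant ones. Fn1, coding for fibronectin, which stem cells also make, had 12860 and 12235 normalized reads in Lncenc1-high cells and 10311 and 9543 in Lncenc1-low cells. Both Lncenc1-high libraries lay above both Lncenc1-low libraries. The authors' deposited table gives Fn1 a log2 fold change of 0.34 ± 0.18 (SE), 1.26-fold, with a DESeq2 adjusted p of 0.584. It was the only interstitial gene with a row whose fold change was positive in the authors' deposited table. The other 12 of the 13 were negative, including untested genes with means under 8.36 normalized reads. Among the 8 tested, 7 were negative, against 50.6% of all tested genes. Vcan, coding for versican, had 2124 and 1875 normalized reads in Lncenc1-high cells and 3569 and 1918 in Lncenc1-low cells, with -0.46 ± 0.27 (SE) in the authors' deposited table. L1 was the single high library for Vcan, and the refitted value was 0.061 without it.

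The fibrillins and type V collagen chains were lower in both Lncenc1-high libraries than in both Lncenc1-low libraries, and none passed the test. Fbn1, the main microfibril protein gene, had 140 and 110 normalized reads in Lncenc1-high cells and 324 and 174 in Lncenc1-low cells. The authors' deposited table gives Fbn1 a log2 fold change equal to -0.99 ± 0.41 (SE), an unadjusted p of 0.0149 and a DESeq2 adjusted p of 0.32, and without L1, its highest library, the refitted value was -0.47. Of its exonic bases 20.1% also belong to Gm9913 on the opposite strand, and the sources used here do not give the strand setting of the counting. Fbn2, the fibrillin of embryonic tissue, had 26.2 and 21.3 normalized reads in Lncenc1-high cells, against 61.6 and 27.2 in Lncenc1-low cells. The authors' deposited table gives Fbn2 -0.89 ± 0.78 (SE), and the refitted value without L1 was -0.19. Col5a1 had 367 and 267 normalized reads in Lncenc1-high cells and 489 and 436 in Lncenc1-low cells, with -0.54 ± 0.29 (SE) and a DESeq2 adjusted p of 0.629 in the authors' deposited table. Col5a2, its partner in the type V trimer that starts collagen fibrils, had 52.9 and 69.0 normalized reads in Lncenc1-high cells, against 153 and 120 in Lncenc1-low cells. The authors' deposited table gives Col5a2 a log2 fold change equal to -1.17 ± 0.47 (SE), an unadjusted p of 0.0125 and a DESeq2 adjusted p of 0.288, the smallest of the matrix genes. Leaving out each library in turn gave Col5a2 refitted values from -1.37 to -0.98.

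The collagen chains that mark fibroblasts had few reads in every library. Col1a2, of type I collagen, had 13 and 10 reads in Lncenc1-high cells and 5 and 15 in Lncenc1-low cells. Its partner Col1a1 had under 10 reads in each library, and the highest value, 9 reads, was that of L2. Col6a1 and Col6a2, of the beaded filament collagen VI, had 0 reads in H1 and H2, against 4 and 0 reads of Col6a1 and 2 and 3 reads of Col6a2 in L1 and L2. No fold change is given for these counts, since a count of 0 allows up to 3 reads in a library, a limit that covers counting error only. Tnc, coding for tenascin C, a glycoprotein of healing wounds and embryonic mesenchyme, had 0 reads in Lncenc1-high cells and 8 and 14 in Lncenc1-low cells. With 3 reads set in each of H1 and H2, Tnc was at least 5.12-fold lower in the Lncenc1-high group. The authors' deposited table gives Tnc an unadjusted p of 0.00311 and no adjusted p, and adjusted over all genes without the authors' filter it was 0.182. Thbs1, coding for the matricellular thrombospondin 1, had 15 and 8 reads in Lncenc1-high cells and 8 and 31 in Lncenc1-low cells, and L2 was its single high library.

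The median log2 fold change over the 13 interstitial genes with a row was -0.99 in the authors' deposited table. With Tnc at its bound and Col6a1 and Col6a2 left out, the median over the remaining 11 was -0.89. Over the 8 with a test it was -0.72, and 7 of these were negative, against 50.6% of all tested genes. In 4 of the 8 the Lncenc1-high libraries lay below the Lncenc1-low ones without overlap, and in 1 above, against 20.7% and 20.6% of all tested genes. Of the 9 tested matrix genes with means under 100 normalized reads, which include the processing genes Loxl2 and Timp3, 8 were negative with a median of -0.89, against 52.4% negative and a median of -0.045 in all 4324 tested genes at that level. Of the 11 with means of at least 1000 normalized reads, 5 were negative with a median of 0.019, against 46.6% and a median of 0.018 in all 3425. The type V chains summed to 419 and 336 normalized reads in Lncenc1-high cells and 642 and 556 in Lncenc1-low cells. The 5 chains of types I, III and VI together summed to 10.8 and 13.8 in Lncenc1-high cells and 17.3 and 33.4 in Lncenc1-low cells.

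**Figure D3:**
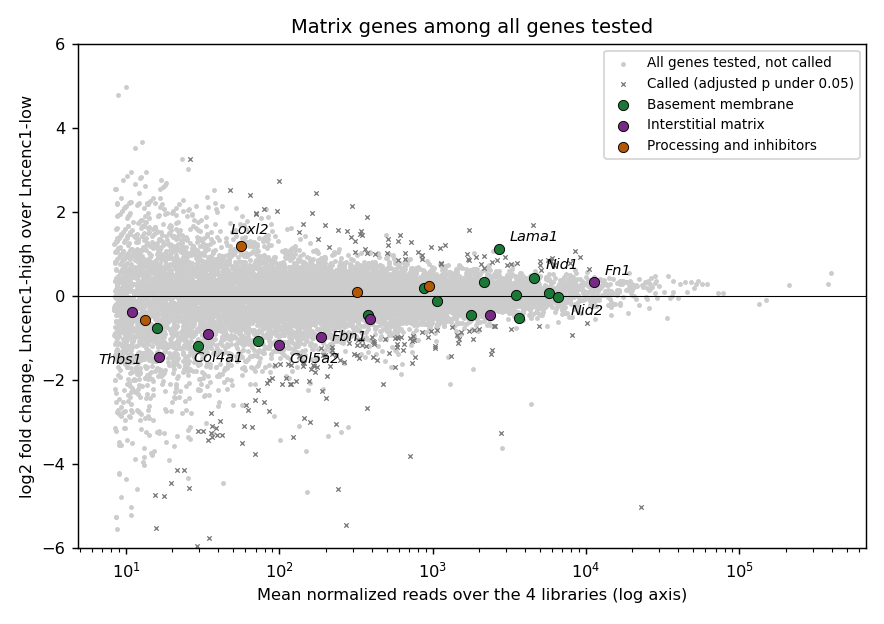
Mean normalized reads over the 4 libraries (log axis) against the log2 fold change, Lncenc1-high over Lncenc1-low, in the authors' deposited table, for all genes tested (grey; crosses mark those called) and for the 26 tested matrix genes (coloured by role). Of the 11 matrix genes with means of at least 1000, 5 lie below 0, 8 of the 9 with means under 100 lie below it, none is among the crosses, and 13 genes beyond 6 on either side are not drawn.

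Matrix processing genes showed no common direction. Serpinh1, the collagen chaperone of the endoplasmic reticulum, had 1229 and 822 normalized reads in Lncenc1-high cells and 1034 and 719 in Lncenc1-low cells, with 0.23 ± 0.27 (SE) in the authors' deposited table. Loxl2, a lysyl oxidase that crosslinks type IV collagen, had 87.3 and 69.0 normalized reads in Lncenc1-high cells and 35.7 and 33.4 in Lncenc1-low cells. The groups did not overlap, and both Lncenc1-high libraries were higher. The authors' deposited table gives Loxl2 a log2 fold change of 1.18 ± 0.60 (SE), an unadjusted p of 0.0473 and a DESeq2 adjusted p of 0.557. Leaving out each library in turn moved the Loxl2 value between 1.00 and 1.34 in the refit. The metalloproteinase inhibitor Timp1 had 359 and 300 normalized reads in Lncenc1-high cells and 260 and 362 in Lncenc1-low cells, with 0.087 ± 0.31 (SE) in the authors' deposited table. Timp2 had 20 and 2 reads in Lncenc1-high cells and 11 and 3 in Lncenc1-low cells, and Timp3 had 36 and 2 in Lncenc1-high cells, against 16 and 10 in Lncenc1-low cells. Per kb, Timp1 was at 361 normalized reads and Timp2 and Timp3 at 1.93 and 1.63. Of the exonic bases of Timp3, 21.3% also belong to Syn3 on the opposite strand.

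**Figure D4:**
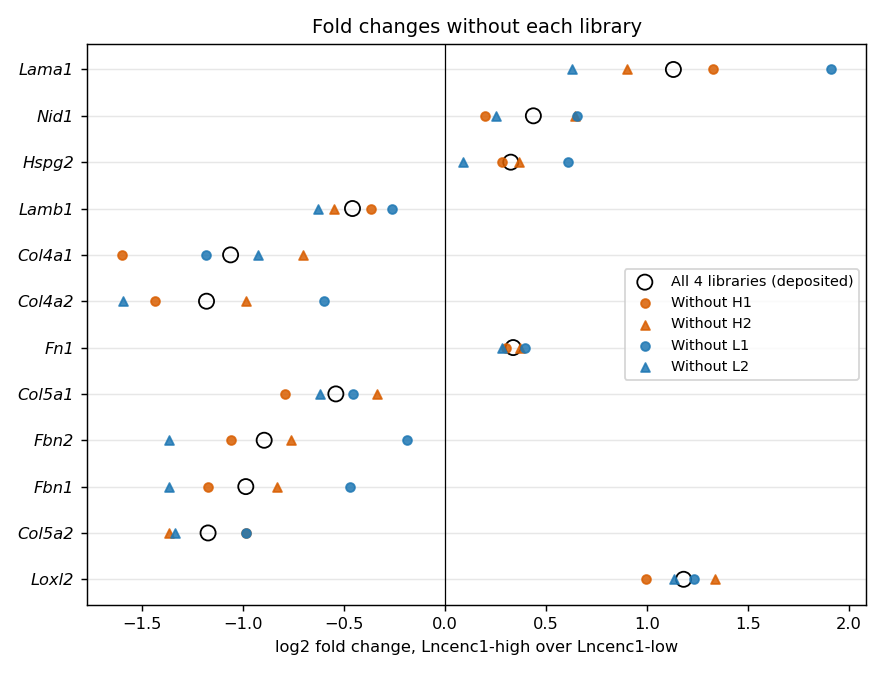
The log2 fold change, Lncenc1-high over Lncenc1-low, of the 12 tested matrix genes whose groups did not overlap, as deposited (open circles) and refitted without each library in turn (orange without a Lncenc1-high library, blue without a Lncenc1-low library). The choice of genes without overlap fixes the sign of every point. The values of Loxl2 lie between 1.00 and 1.34, and those of Lama1 between 0.63 and 1.91.

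Cells bind matrix through integrins, syndecans and other surface proteins. Of 23 tested receptors and cell surface proteoglycans, 1 was called higher and 2 lower in the Lncenc1-high group by DESeq2 in the authors' deposited table. Among all genes tested, 0.505% were called higher and 1.02% lower. At a DESeq2 unadjusted p under 0.05, 1 of the 23 was higher and 6 were lower, against 3.54% and 5.28% of all genes tested. Sdc4, a syndecan at focal adhesions, had 1020 and 1668 normalized reads in Lncenc1-high cells, against 2976 and 3962 in Lncenc1-low cells. Its log2 fold change was -1.37 ± 0.26 (SE) with a DESeq2 adjusted p of 4.56e-05 in the authors' deposited table. Itga1, the alpha chain of a collagen-binding integrin, had 3.08 and 12.5 normalized reads in Lncenc1-high cells, against 43.1 and 98.9 in Lncenc1-low cells. For Itga1 the value was -3.30 ± 0.86 (SE), with a DESeq2 adjusted p of 0.0147 in the authors' deposited table. Sdc2, another syndecan, had 198 and 201 normalized reads in Lncenc1-high cells, against 83.8 and 55.6 in Lncenc1-low cells. For Sdc2 the value was 1.52 ± 0.42 (SE), with a DESeq2 adjusted p of 0.0301 in the authors' deposited table. With 1 library fewer, calls were lost. The groups of these 3 genes did not overlap, which fixes the sign of every refit. In the refit the Sdc4 call was lost on leaving out H1 (adjusted p = 0.113) or L2 (adjusted p = 0.0644), that of Itga1 on leaving out H1 (adjusted p = 0.58) or L2 (adjusted p = 0.551), and that of Sdc2 on leaving out H1 (adjusted p = 0.261), H2 (adjusted p = 0.233) or L2 (adjusted p = 0.598). Refitted log2 fold changes without 1 library ran from 1.25 to 1.84 for Sdc2, -1.77 to -1.06 for Sdc4 and -4.53 to -2.50 for Itga1. Voom called none of the 3, with adjusted p from 0.161 to 0.279. At an unadjusted p under 0.05 the authors' deposited table also held the syndecan gene Sdc1 at -0.81 ± 0.26 (SE), the glypican genes Gpc1 at -1.05 ± 0.35 (SE) and Gpc4 at -1.11 ± 0.43 (SE), and Ddr2, a collagen receptor kinase gene, at -1.07 ± 0.53 (SE), all without a call.

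Of 20 tested genes of collagen modification and export, 1 was called in the authors' deposited table, against 1.53% of all genes tested. At a DESeq2 unadjusted p under 0.05, 1 of the 20 was higher and 4 were lower in the Lncenc1-high group, against 3.54% and 5.28%. Sec23a codes for a coat subunit of the vesicles that carry procollagen out of the endoplasmic reticulum. It had 1399 and 1451 normalized reads in Lncenc1-high cells, against 2950 and 3975 in Lncenc1-low cells. The authors' deposited table gives Sec23a a log2 fold change equal to -1.28 ± 0.21 (SE) and a DESeq2 adjusted p of 1.53e-06, and it stayed called without any 1 library (adjusted p from 1.25e-05 to 0.024), though not by voom (adjusted p = 0.102). P4ha1 and P4ha2 code for alpha subunits of collagen prolyl hydroxylase. P4ha1 had 1525 and 1458 normalized reads in Lncenc1-high cells and 1135 and 669 in Lncenc1-low cells, with 0.73 ± 0.26 (SE) and a DESeq2 adjusted p of 0.191 in the authors' deposited table. P4ha2 had 250.01 and 216 normalized reads in Lncenc1-high cells, against 753 and 318 in Lncenc1-low cells, with -1.20 ± 0.37 (SE) and a DESeq2 adjusted p of 0.0709 in the authors' deposited table, and the refitted value without L1 was -0.45. For P4ha1 the refitted value was 0.39 without L2 and 1.16 without L1, where it was called (adjusted p = 0.0332). Plod3, a collagen lysyl hydroxylase gene, at -0.56 ± 0.25 (SE), and Bmp1, the gene of a procollagen C-proteinase, at -3.47 ± 1.18 (SE), were the other tested genes of this list at an unadjusted p under 0.05 in the authors' deposited table. Loxl4, which had no adjusted p, had 0 normalized reads in both Lncenc1-high libraries, against 4.93 and 12.4 in Lncenc1-low cells. The most abundant gene of the list, P4hb, the beta subunit of the prolyl hydroxylase, had 0.15 ± 0.18 (SE) in the authors' deposited table.

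The other 24 basement membrane genes, none of them in the list above, had 16 tested and 0 called by DESeq2 in the authors' deposited table and by voom, with 1 higher and 6 lower in the Lncenc1-high group at an unadjusted p under 0.05. Among all tested genes, 3.54% were higher and 5.28% lower at that level. Of the 24, the 23 with a row had a median of 3.92 normalized reads per kb, against 215 for the 14 genes above. Over the 16 tested, the median log2 fold change was -0.87 in the authors' deposited table. Lowest were Col4a4, a chain of the mature kidney collagen network, with 3.08 and 7.53 normalized reads in Lncenc1-high cells and 57.9 and 33.4 in Lncenc1-low cells, and a DESeq2 adjusted p of 0.053 in the authors' deposited table, and Lamb3, of the skin laminin, with 3.59 and 7.53 in Lncenc1-high cells, against 20.9 and 71.7 in Lncenc1-low cells (adjusted p = 0.0829). Frem2, needed for adhesion of embryonic epithelia, had 362 and 297 normalized reads in Lncenc1-high cells and 571 and 602 in Lncenc1-low cells, with -0.82 ± 0.27 (SE) in the authors' deposited table. Fras1, whose protein acts in a complex with that of Frem2, was at -0.91 ± 0.44 (SE), Smoc1 at 0.50 ± 0.25 (SE) and Lama3 at -1.22 ± 0.61 (SE) in the authors' deposited table, and the most abundant gene of the list, the netrin gene Ntn1, was at 0.37 ± 0.20 (SE). In Lama3, Lamb3 and Npnt, coding for nephronectin, L2 was the high library, and the refitted value of Lama3 without it was -0.095. Npnt had 39.5 and 28.9 normalized reads in Lncenc1-high cells, against 50.5 and 188 in Lncenc1-low cells, and its refitted value was -0.55 without L2, against -1.79 ± 0.64 (SE) in the authors' deposited table.

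Of 17 tested matrix proteases and their regulators DESeq2 in the authors' deposited table called 0, as did voom. Against 8.82% of all genes tested, 3 of the 17 had a DESeq2 unadjusted p under 0.05. These were Ctsb and Ctsl, coding for the lysosomal cathepsins B and L, with 0.40 ± 0.19 (SE) and 0.54 ± 0.20 (SE), and Htra1, a secreted serine protease gene, with -2.78 ± 0.88 (SE), all from the authors' deposited table. Of 8 tested primitive endoderm genes and of 13 tested genes of the larger fibroblast list the deposited DESeq2 test and voom called 0, with 0 of either at an unadjusted p under 0.05. The most abundant primitive endoderm gene, Lrp2, which codes for an endocytic receptor, had 437 and 368 normalized reads in Lncenc1-high cells and 394 and 619 in Lncenc1-low cells. The most abundant fibroblast gene, Fbln1, which codes for fibulin 1, had 1126 and 1068 in Lncenc1-high cells, against 1105 and 617 in Lncenc1-low cells. Col5a3, of the same list and with no adjusted p, had 0.513 and 0 normalized reads in Lncenc1-high cells, against 8.63 and 12.4 in Lncenc1-low cells. All 12 tested pluripotency genes had positive fold changes in the authors' deposited table, with a median of 0.31, and 0 were called by DESeq2 there or by voom. Of all tested genes with means of at least 1000 normalized reads, 46.6% were negative and the median was 0.018. At an unadjusted p under 0.05 the authors' deposited table held Dppa5a, Nanog and Tbx3, with values from 0.37 to 0.48.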

How the data were processed

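RNA of 2 libraries per group was sequenced. For the authors' processing, TopHat2, HTSeq, DESeq2 1.8.2 and the build mm9 are named in the submitters' processing notes, with no order or settings. Per the file headers, the authors deposited 1 DESeq2 table of 19840 genes, which holds the signal (the mean over all 4 libraries of counts divided by size factors), a log2 fold change with its standard error, the Wald score, and a p-value with its Benjamini-Hochberg adjustment. The deposited values are the main result, with calls at an adjusted p under 0.05, and 14070 genes had an adjusted p.

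Whole reads of each library were worked out from the 15 significant digits of the deposited means, with the deposited fold change as a check, for 99.9% of genes. Of the 32 matrix genes with a row, 23 had a single solution and 9 were chosen by the fold change. A negative binomial refit at the dispersion implied by the deposited standard error gave the values without each library. Where no dispersion could be implied, as for Tnc, Col6a1 and Col6a2, a fixed value was used. A lone library is taken to vary as the rest do, and a group with no reads is set to 0.5 reads. Limma 3.58.1 (voom, R 4.3.3), scaling by library totals and adjustment over all 19840 genes were the other alternatives. Recovery and tests were tested on simulated data.

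Symbols were matched by Ensembl identifier for 19707 genes, and exon lengths are those of GENCODE on GRCm38, another build than the authors', used for names and lengths only. Members and lists were chosen with earlier results of these data known. All 36 members were to be named, and of each other list the genes with an unadjusted p under 0.05 and the most abundant gene.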

Additional observations from a re-analysis of the deposited data

How the results depend on the processing

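Under the alternatives run, 0 matrix genes were called. Where the groups of a matrix gene did not overlap, leaving out 1 library could not change the sign. This held for 5 genes with the Lncenc1-high group above and 9 with it below. Among the 26 tested, the counts were 5 and 7, against 20.6% and 20.7% of all tested genes. Col6a2 and Tnc, among the 9, had few reads and no adjusted p. Of 128 log2 fold changes refitted without 1 library, 108 kept their sign. The 14 genes that did not ranged from -1.004 to 0.19 (Lama5), -4.02 to 0.12 (Col4a5), -0.43 to 0.27 (Col18a1), -0.063 to 0.012 (Nid2), -0.24 to 0.33 (Agrn), -0.85 to 0.12 (Sparc), -2.72 to 0.46 (Col1a1), -0.97 to 0.62 (Col1a2), -1.21 to 0.79 (Col3a1), -0.84 to 0.061 (Vcan), -0.093 to 0.51 (Serpinh1), -0.13 to 0.35 (Timp1), -1.78 to 0.82 (Timp2) and -2.68 to 0.20 (Timp3), and the cause was not tested. With library totals Agrn was -0.023, the only sign that changed among 90 values of the other alternatives. Tested matrix genes with an unadjusted p under 0.05 numbered 4, and 2 to 5 without 1 library. Over all genes, the deposited test made 215 calls and the refit with all libraries 209, and leaving out H1 gave 55, H2 78, L1 194 and L2 48. Library totals gave 237, adjustment without the filter 178 and voom 6. The median of the 13 interstitial genes with a row ranged from -1.21 to -0.89 without 1 library. These include Tnc, Col6a1 and Col6a2, whose Lncenc1-high group had no reads and was set to 0.5 reads. Over the 8 tested genes, the voom median was -0.62. No paired analysis was possible because the deposited table carries no column per library, and which recovered library carries which replicate number of the labels is not known.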
